A study of Homo sapiens with 6 samples.

Results

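The 10 genes described here are noncoding host genes of small nucleolar RNAs (snoRNAs): GAS5, SNHG1, SNHG5, SNHG6, SNHG8, SNHG12, SNHG15, SNHG16, ZFAS1 and DANCR. They were chosen by name, with earlier results of these data known. All 10 were found among the 15059 genes of the expression table and passed the filter on low values. The data are RNA sequencing libraries of NOMO-1, an established line of human acute myeloid leukaemia cells, and there are 6 of them, 2 for each of 3 groups. Every group received a guide RNA by viral transduction and was kept in 2 µg/ml puromycin for 1 to 2 weeks. Control cells carried the non-targeting guide sgNS and the empty vector EV. Knockout cells carried the guide sgMETTL16 and the same empty vector. Rescue cells carried sgMETTL16 in cells made to overexpress METTL16 (OE-METTL16) in place of the empty vector. The rescue cells are therefore a parallel group with their own vector and not knockout cells followed in time, and nothing in the labels states that the replicates are separate cultures or the cells single clones. The p-values then measure only the spread between these libraries, which may be technical.

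A snoRNA host gene is transcribed and spliced, and the snoRNAs are trimmed out of its excised introns. The box C/D snoRNAs guide 2′-O-methylation, and the box H/ACA snoRNAs guide pseudouridylation, mainly of ribosomal RNA. The spliced exons of a noncoding host are exported but hold no long open reading frame, so that ribosomes which engage them stop early and nonsense-mediated decay (NMD) can degrade the RNA. Many such hosts start with a C followed by a run of pyrimidines, the terminal oligopyrimidine (TOP) start that they share with ribosomal protein messenger RNAs and through which mTOR signalling controls translation. Their level is thus known to depend on transcription, on translation and on decay. METTL16, the gene targeted here, is an RNA N6-adenosine methyltransferase that modifies U6 small nuclear RNA and the transcript of MAT2A, whose product synthesises S-adenosylmethionine.

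A TOP start lies in the first bases of a transcript, so the 80 bases around the annotated start are shown for 6 of the genes. The first 3 were lower in knockout cells, and the last 3 did not pass the test there. Each sequence runs 5′ to 3′ on the transcribed strand from 40 bases before the RefSeq start to 40 bases from it (GRCh38.p14). Capitals mark a C followed by at least 4 further C or T anywhere in the window, so a marked tract need not be a TOP start.
SNHG5 (chr6:85678694-85678773, minus strand): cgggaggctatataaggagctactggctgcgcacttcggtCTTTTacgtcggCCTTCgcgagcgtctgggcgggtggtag
SNHG8 (chr4:118278722-118278801, plus strand): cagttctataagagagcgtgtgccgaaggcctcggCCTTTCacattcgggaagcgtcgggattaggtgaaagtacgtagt
GAS5 (chr1:173869006-173869085, minus strand): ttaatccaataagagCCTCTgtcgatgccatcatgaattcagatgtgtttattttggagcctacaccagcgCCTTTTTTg
SNHG12 (chr1:28581834-28581913, minus strand): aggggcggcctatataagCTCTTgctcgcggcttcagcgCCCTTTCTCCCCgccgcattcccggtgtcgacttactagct
SNHG16 (chr17:76557724-76557803, plus strand): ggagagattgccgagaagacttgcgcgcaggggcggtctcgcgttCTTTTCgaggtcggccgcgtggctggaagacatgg
ZFAS1 (chr20:49278602-49278681, plus strand): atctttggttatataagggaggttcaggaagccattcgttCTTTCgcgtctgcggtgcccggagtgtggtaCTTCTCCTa
RefSeq held a promoter for 8 of the 10 genes, all but SNHG6 and SNHG15. A tract of this kind lay in the window of 8 of these 8, and it also lay in 69.0% of all 35116 promoters on the transcribed strand and in 74.3% on the other strand. In 6 of the 8, SNHG5, SNHG8, SNHG12, SNHG16, ZFAS1 and DANCR, a tract began within 10 bases of the annotated start, against 31.4% of all promoters. GAS5 and SNHG1 were the exceptions, and the RefSeq start lies more than 10 bases from the start of the GENCODE gene for all of the 8 but SNHG16 and DANCR. A match is a run of letters in a window and no measured start of transcription.

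The values analysed are the gene-level abundances that the authors made with RSEM, which the table does not name as TPM or FPKM and which are termed signal below. Summed over all genes of the table it ran from 597160 in knockout replicate 2 to 681928 in rescue replicate 2. No value in the table was 0, and whether genes without signal were left out is not stated. The sum is therefore that of the 15059 rows and not of a whole library. Structured and small RNAs, 367 of them, held 38.6% of the summed signal in knockout replicate 2 and 42.4% to 43.6% in the other libraries. Control replicate 2 stood apart, with a median signal per gene of 6.87 against 7.45 to 7.69 in the other libraries, and the 4 falls of host genes in knockout, the split over all genes and the counts of NMD factors are given below also without it. Read totals are not given in the sources used here. From the spacing of the lowest snoRNA values, a signal of 1 was estimated to stand for 22.8 to 24.5 reads on a transcript of 1000 nt, so the spliced hosts rest on far more reads than most of their snoRNAs. METTL16 itself had a signal of 9.89 and 9.63 in control, 6.05 and 5.83 in knockout and 12.3 and 12.1 in rescue. The knockout group thus held 60.9% of its control level (log2 change -0.63, adjusted p = 4.76e-05), and its transcript level says nothing of the protein. The target MAT2A fell by 0.80 on the log2 scale (adjusted p = 2.00e-07).

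The NOMO-1 label was set against lineage markers. Of 14 myeloid markers 12 were in the table, led by the granule protease gene CTSG at a signal of 304 to 1364, while MPO and CD14 were not in it. Among markers of other lineages, the B-cell gene CD79A had a signal of 0.311 to 1.14 over the 6 libraries, and the epithelial keratin genes KRT8 and KRT18 had 0.508 to 1.03 and 0.154 to 0.365. The T-cell, erythroid, platelet and fibroblast markers CD3D, CD3E, HBB, HBA1, PF4, PPBP and COL1A1 were not among the rows of the table used here. The myeloid markers moved with the groups, at a summed signal of 707 and 657 in control, 1975 and 1916 in knockout and 925 and 914 in rescue. CTSG alone made up 1364 and 1340 of the knockout sums. By limma at an adjusted p under 0.05, 10 of the 12 rose in knockout and 0 fell. Of all genes tested 26.2% rose and 13.5% fell. The direction of these markers was opposite to that of the 4 host genes that fell in knockout, described below. The part of the markers in the results below was not tested.

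Together the 10 host genes held less of the table's summed signal in knockout cells. Their summed signal was 986 and 941 in control, 789 and 768 in knockout and 972 and 974 in rescue, so that both knockout libraries lay below the other 4. SNHG5, GAS5, SNHG8 and SNHG6, with control means of 288, 214, 131 and 117, weigh most in this sum. In knockout these 4 held 68.8% to 78.0% of their control level, and the other 6 hosts held 87.9% to 104%. Of the table's whole signal, the sum was 0.147% and 0.152% in control, 0.122% and 0.129% in knockout and 0.143% and 0.143% in rescue. The same order held once the structured and small RNAs were left out of the total, at 0.258% and 0.264%, 0.211% and 0.210%, and 0.253% and 0.25%. Whether fewer cells of a kind or less of the RNA in each cell lies behind such a difference cannot be told apart in bulk libraries.

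Host genes differed widely in level. In control cells the order by signal, a measure per transcript length, was SNHG5, GAS5, SNHG8, SNHG6, SNHG1, SNHG16, SNHG12, ZFAS1, SNHG15 and DANCR. The control mean ran from 288 for SNHG5 to 13.3 for DANCR, and the mean over 6 libraries stood at percentiles 98.6 and 65.4 of the table. Neighbours in this order did not overlap between their control libraries except SNHG16 with SNHG12 and SNHG12 with ZFAS1. In knockout cells SNHG6 stood above SNHG8, with overlapping libraries, and SNHG12 and SNHG16 also overlapped. In rescue cells the control order came back, and 0 of the neighbouring pairs overlapped.

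**Figure D1:**
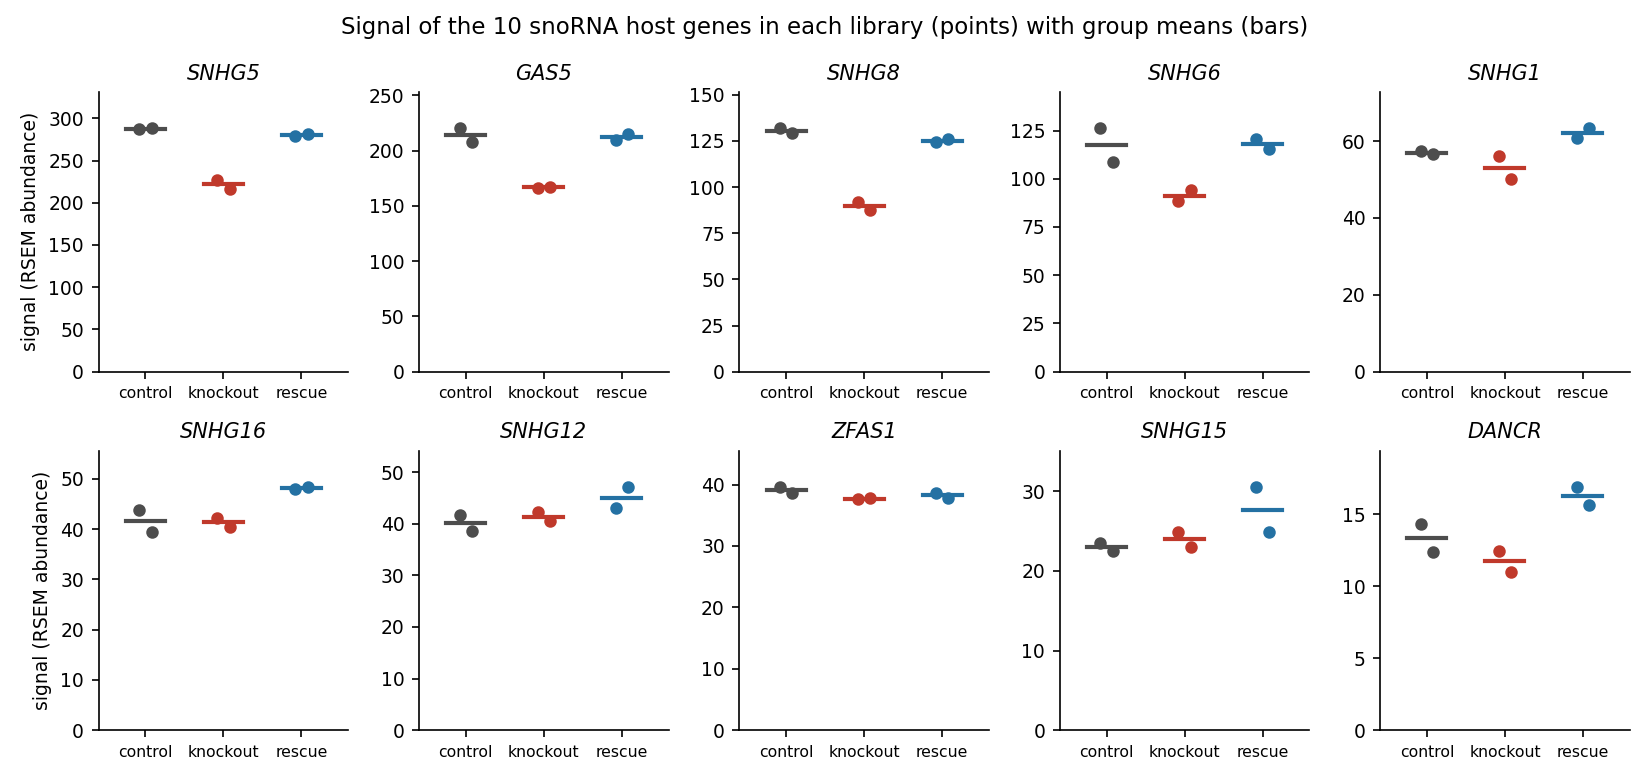
Signal (vertical axes, RSEM abundance, each from 0) of the 10 host genes in the 2 control, 2 knockout and 2 rescue libraries (points), with the group mean as a bar. In the 4 panels of highest signal both knockout points lie below all control and rescue points, while ZFAS1 stays between 37.6 and 39.6 in all 6 libraries.

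Knockout against control asks which host genes differ once METTL16 is targeted. Of the 10 host genes, 4 fell and 0 rose by limma on log2(signal + 1), at an adjusted p under 0.05, where 13.5% of all 12734 genes tested fell and 26.2% rose (39.7% in either direction). The 4 were SNHG5, GAS5, SNHG8 and SNHG6, which are the 4 of highest signal, and each held between 68.8% and 78.0% of its control level. The median log2 change of the 10 was -0.14, beside 0.067 for all genes tested, and 8 of the 10 lay below 0. The scaling of the libraries bears on the other genes: with quantile normalization or median-of-ratios scaling 8 host genes fell in place of 4, adding SNHG1, SNHG16, ZFAS1 and DANCR. Over all genes 3187 of 12734 fell under the first and 3434 of 12726 under the second, beside 1723 of 12734 without them. Under those scalings the split over all genes also moved, from 65.9% of called genes risen to 49.7% and 46.0%. Without control replicate 2 the count of host genes that fell was 4 as well, while over all genes 2377 rose and 2257 fell, 51.3% of called genes risen.

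SNHG8 (ENSG00000269893, chr4:118278709-118279823, plus strand, GRCh38) showed the largest fall of the 10. This short host carries the H/ACA snoRNA SNORA24 in an intron. Its signal was 131.7 and 129.4 in control, 92.1 and 87.6 in knockout and 124.2 and 125.9 in rescue. Both knockout libraries were low, and the rescue libraries lay just under the control libraries. The log2 change in knockout was -0.53 (SE 0.053, 95% interval -0.65 to -0.42, adjusted p = 5.70e-06).

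SNHG5 (ENSG00000203875, chr6:85660950-85678748, minus strand), the host of the C/D snoRNAs SNORD50A and SNORD50B, had the highest signal of the group. It stood at 287.8 and 288.0 in control, 226.7 and 216.7 in knockout and 279.2 and 280.9 in rescue. The control libraries differed by less than 1 unit of signal, and the knockout libraries did not overlap with either other group. Its log2 change was -0.38 (SE 0.050, 95% interval -0.48 to -0.27, adjusted p = 6.38e-05).

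GAS5 (ENSG00000234741, chr1:173863900-173868882, minus strand) is the host named for its accumulation in growth-arrested cells, in which less translation leaves its RNA less exposed to decay, and it carries 10 C/D snoRNAs. Its signal was 220.0 and 207.4 in control, 166.3 and 167.0 in knockout and 209.9 and 214.7 in rescue. Knockout libraries were low, and those of rescue fell within the range of control. The log2 change was -0.36 (SE 0.052, 95% interval -0.47 to -0.24, adjusted p = 0.000132).

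SNHG6 (ENSG00000245910, minus strand of chromosome 8, 66921684 to 66926398) carries SNORD87. Its signal was 126.1 and 108.6 in control, 88.7 and 93.9 in knockout and 120.7 and 115.3 in rescue. The control libraries were the furthest apart among the 4 genes, and both still lay above knockout. The log2 change was -0.36 (SE 0.068, 95% interval -0.50 to -0.21, adjusted p = 0.00106).

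These 4 falls passed the test in all 15 alternative settings. Without control replicate 2 the log2 changes were -0.38 for SNHG5 (adjusted p = 0.00227), -0.40 for GAS5 (0.0015), -0.55 for SNHG8 (0.00112) and -0.46 for SNHG6 (0.00227). Over all settings the highest adjusted p of any of the 4 was 0.0136, for SNHG6.

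The remaining 6 host genes did not pass the test in knockout cells. SNHG1 (ENSG00000255717, chr11:62851988-62855914, minus strand), known as the U22 host gene and carrier of 8 C/D snoRNAs, had a signal of 57.4 and 56.6 in control, 56.1 and 50.1 in knockout and 60.9 and 63.3 in rescue. Its control and knockout libraries did not overlap, by a narrow gap, and the log2 change was -0.10 (95% interval -0.24 to 0.036, adjusted p = 0.225). DANCR (ENSG00000226950, chr4:52712404-52720351, plus strand), named for its role in holding back differentiation of progenitor cells and host of SNORA26, stood at 14.3 and 12.4 in control, 12.5 and 10.98 in knockout and 16.9 and 15.6 in rescue. Its control and knockout libraries overlapped, and the log2 change of -0.17 had an interval of -0.37 to 0.022 (adjusted p = 0.146).

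ZFAS1 (ENSG00000177410, chr20:49278178-49295738, plus strand), an antisense neighbour of ZNFX1 and host of SNORD12, SNORD12B and SNORD12C, was the most even of the 10. Its signal was 39.6 and 38.6 in control, 37.6 and 37.8 in knockout and 38.6 and 37.8 in rescue. All 6 libraries lay between 37.6 and 39.6, and the log2 change in knockout was -0.05 (95% interval -0.18 to 0.076, adjusted p = 0.523).

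The hosts SNHG12, SNHG15 and SNHG16 had control and knockout libraries that overlapped. SNHG16 (ENSG00000163597, chr17:76557766-76565348, plus strand), which carries the SNORD1 family, stood at 43.8 and 39.5 in control and 42.1 and 40.5 in knockout, then at 48.0 and 48.4 in rescue. SNHG12 (ENSG00000197989, chr1:28578538-28583132, minus strand), which carries 3 H/ACA snoRNAs and SNORD99, stood at 41.7 and 38.6, 42.3 and 40.4, and 43.0 and 47.1 in the same order. SNHG15 (ENSG00000232956, chr7:44983023-44986961, minus strand), a short-lived RNA that carries SNORA9, stood at 23.5 and 22.5, 24.9 and 23.0, and 30.5 and 24.9. The highest library of each of the 3 was in the rescue group, and for SNHG15 the other rescue library overlapped with knockout. Their log2 changes in knockout were -0.01 (95% interval -0.15 to 0.13), 0.04 (-0.10 to 0.19) and 0.06 (-0.13 to 0.25), with adjusted p of 0.924, 0.653 and 0.622. The sign of each of these 3 values turned in at least 1 alternative setting, among them median-of-ratios scaling for SNHG12 (-0.050) and SNHG15 (-0.031).

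**Figure D2:**
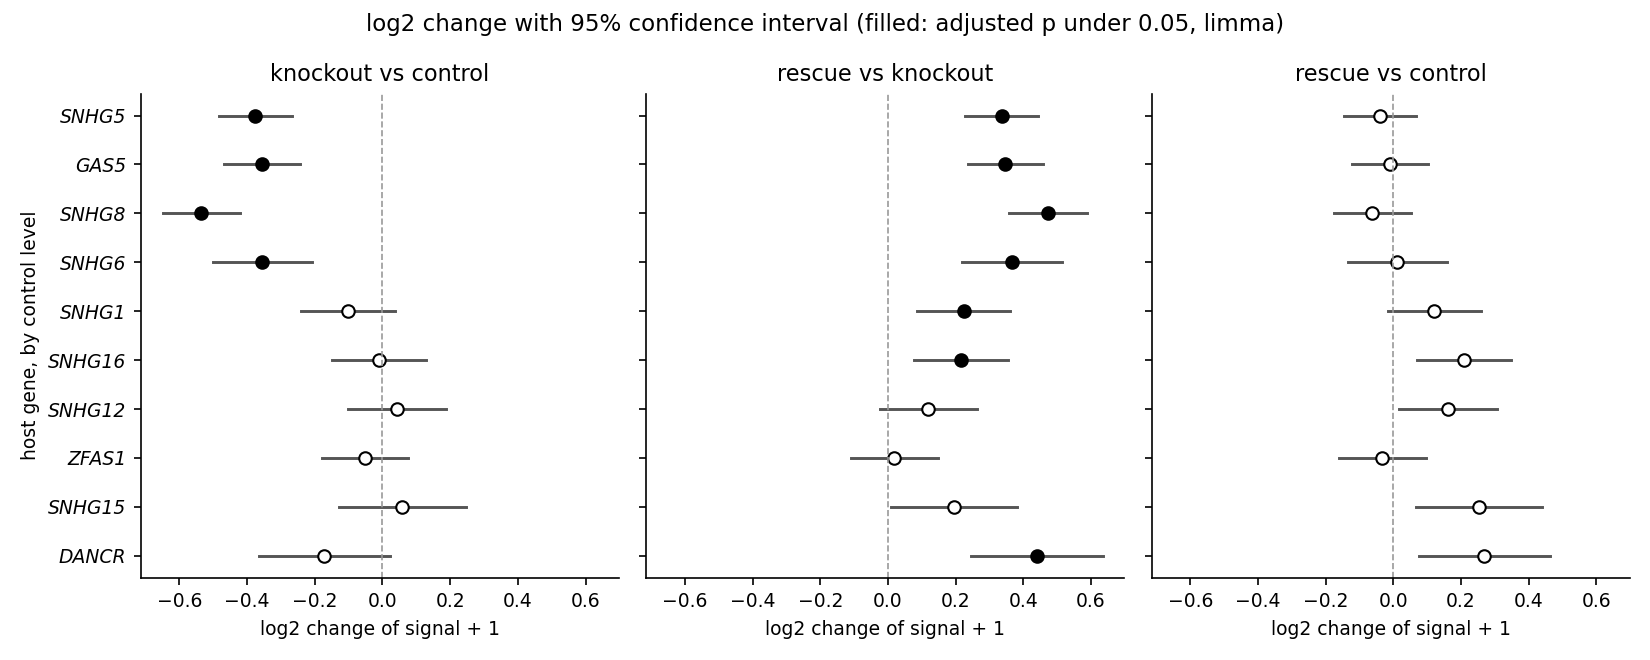
Change of log2(signal + 1) of each host gene (horizontal axes) in the 3 comparisons, with the 95% confidence interval from limma and genes in the order of their control level. Filled points passed an adjusted p of 0.05. They are the 4 most abundant hosts on the left side of 0 in knockout, 7 hosts on the right side in rescue against knockout, and 0 in rescue against control.

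Rescue against knockout asks whether the host genes stand higher where METTL16 is overexpressed. Of the 10, 7 rose and 0 fell, where 15.6% of all genes tested rose and 15.9% fell (31.4% in either direction). This comparison shares the knockout libraries with the one above, so the 2 sets of values are not independent. The 4 genes that were low in knockout stood at 0.47 (SNHG8, adjusted p = 2.92e-05), 0.37 (SNHG6, 0.00124), 0.35 (GAS5, 0.000278) and 0.34 (SNHG5, 0.000264) on the log2 scale. The others that rose were DANCR at 0.44 (95% interval 0.25 to 0.63, adjusted p = 0.00234), SNHG1 at 0.22 (0.086 to 0.36, adjusted p = 0.0166) and SNHG16 at 0.22 (0.078 to 0.36, adjusted p = 0.0204). DANCR passed in all 15 alternative settings. SNHG1 and SNHG16 did not pass without a mean-variance trend (adjusted p = 0.0643 and 0.0658), without knockout replicate 2 (0.269 and 0.141), without rescue replicate 1 (0.052 and 0.107) or without rescue replicate 2 (0.151 and 0.134). SNHG15 had a log2 difference of 0.19 (adjusted p = 0.104), SNHG12 of 0.12 (0.195) and ZFAS1 of 0.02 (0.836). The median over the 10 was 0.28, beside -0.012 for all genes. Over all genes the split of calls moved from 49.5% risen to 35.1% where libraries were scaled without structured and small RNAs, and under that scaling ZFAS1 stood at -0.042.

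Rescue against control compares cells that differ in both guide and vector. By limma 0 of the 10 host genes passed, and 4 of them, DANCR, SNHG15, SNHG16 and SNHG12, had an unadjusted p under 0.05, all with the higher level in rescue. An unadjusted p under 0.05 was reached by 1463 of the 12734 genes tested, and over all genes the median was 0.061, with 9639 above 0 and 3095 below. Of all genes tested 0.283% passed in this comparison, with 29 risen (0.228%) and 7 fallen (0.055%). The largest differences were 0.27 for DANCR (95% interval 0.075 to 0.46, adjusted p = 0.273), 0.25 for SNHG15 (0.067 to 0.44, adjusted p = 0.286), 0.21 for SNHG16 (0.069 to 0.35, adjusted p = 0.239) and 0.16 for SNHG12. Without control replicate 2 they were 0.17 for DANCR, 0.22 for SNHG15, 0.14 for SNHG16 and 0.11 for SNHG12. In this comparison the 4 genes that fell in knockout had differences of -0.06 for SNHG8, -0.04 for SNHG5, -0.01 for GAS5 and 0.01 for SNHG6. Their intervals lay between -0.18 and 0.16, and the rescue group held 95.8% to 100.6% of their control level. SNHG15 alone passed in some settings, with the replicate number as a block (0.25, adjusted p = 0.0358) and without rescue replicate 2 (0.40, adjusted p = 0.0311).

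Each host has a partner in the same primary transcript, since the snoRNAs come from its introns. RefSeq places 34 snoRNAs within the 10 hosts, and 25 of them were in the table and were tested. Mature snoRNAs are short, and most were near the limit of what these libraries can show: estimated reads reached at least 20 in every library for 9 of the 25, a split chosen after the values were seen. In knockout 4 of the 25 fell and 2 rose, beside 13.5% and 26.2% of all genes. Among the 9 with more reads, 2 fell and 0 rose. The fit takes its spread from signal and not from reads, and a short RNA reaches a given signal on few reads. Standard errors and p-values of snoRNAs on few reads can therefore lie below counting error, which leaves their calls uncertain. The authors' quantification may share reads between a host and its snoRNA, because annotated transcripts of hosts such as SNHG1, SNHG5, SNHG8 and SNHG12 keep a snoRNA-bearing intron as exon in GENCODE.

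The sequences of SNORA24 and SNORD26 are shown because they are the H/ACA and the C/D snoRNA that fell and whose knockout libraries lay closest together relative to their mean. In SNORA24 the capitals mark the ACA box, which lies 3 bases before the end, and in SNORD26 they mark the D box CTGA (GRCh38).
SNORA24 (chr4:118279190-118279320, plus strand): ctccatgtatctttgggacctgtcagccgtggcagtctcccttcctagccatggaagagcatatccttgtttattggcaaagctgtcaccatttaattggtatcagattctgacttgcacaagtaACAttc
SNORD26 (chr11:62855292-62855366, minus strand): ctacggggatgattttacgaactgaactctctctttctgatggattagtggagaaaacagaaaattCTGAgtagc

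SNORA24, in SNHG8, was the most abundant of the 25, with an estimated 432 to 598 reads per library. Its signal was 272.6 and 286.5 in control, 219.1 and 232.4 in knockout and 281.7 and 306.9 in rescue. Knockout libraries were lowest, as they were for its host, and the log2 change was -0.31 (SE 0.058, adjusted p = 0.000906) where that of SNHG8 was -0.53. In rescue against knockout it rose by 0.38 (adjusted p = 0.000294). Both calls held in all 15 settings.

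SNORD76 was the deepest of the 6 GAS5 snoRNAs in the table, with 76 to 157 estimated reads. Its signal was 180.0 and 201.0 in control, 100.01 and 132.5 in knockout and 196.2 and 186.9 in rescue. The knockout libraries were low and did not overlap with the others, and the log2 change was -0.72 (SE 0.097, adjusted p = 6.75e-05), beside -0.36 for GAS5. In rescue it rose by 0.73 (adjusted p = 0.000108).

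The other 5 snoRNAs of GAS5 in the table did not pass the test in knockout. SNORD74, with 15 to 34 estimated reads, stood at 60.1 and 47.8 in control, 50.9 and 29.4 in knockout and 45.4 and 30.3 in rescue. Its control and knockout libraries overlapped, and the log2 change of -0.46 had an interval of -0.89 to -0.03 (adjusted p = 0.0806). It passed in 6 of the 15 settings, with -0.85 without knockout replicate 1 and -0.075 without knockout replicate 2. SNORD47, with 43 to 79 estimated reads, stood at 71.3 and 78.1 in control, 65.1 and 72.0 in knockout and 117.2 and 85.1 in rescue. SNORD79, with 35 to 57, stood at 48.0 and 44.5, 47.7 and 57.4, and 73.9 and 56.6. For SNORD47 and SNORD79 control and knockout libraries overlapped, at log2 changes of -0.12 (adjusted p = 0.389) and 0.18 (adjusted p = 0.199), so snoRNAs of 1 host had values on both sides of 0. These 2 rose in rescue against knockout, by 0.54 (adjusted p = 0.00197) and 0.30 (adjusted p = 0.0428). The call for SNORD79 was lost in 10 of the 15 settings.

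SNHG1 did not pass the test in knockout, and of its 5 snoRNAs in the table SNORD26 fell. SNORD26 stood at 37.0 and 47.0 in control, 28.7 and 29.1 in knockout and 46.6 and 45.1 in rescue, on 17 to 30 estimated reads. Its log2 change was -0.51 (SE 0.087, adjusted p = 0.000438), and it rose by 0.65 in rescue (adjusted p = 0.000127). On so few reads this SE can lie below counting error. SNORD22 and SNORD28, with at least 20 reads in every library, had log2 changes of -0.27 (adjusted p = 0.176) and 0.23 (adjusted p = 0.179) in knockout. SNORD22 and SNORD29 rose in rescue against knockout, at 0.50 (adjusted p = 0.0213) and 0.99 (adjusted p = 0.0296), and each call was lost in 8 of the 15 settings.

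SNHG5 fell while neither of its snoRNAs was called as fallen. Both had too few reads for a fall of the size of their host to be detectable. SNORD50A, on 3 to 11 estimated reads, stood at 4.83 and 17.7 in control, 15.9 and 13.0 in knockout and 14.9 and 11.8 in rescue. SNORD50B, on 1 to 7, stood at 5.72 and 1.88, 13.3 and 7.82, and 9.88 and 14.1. Control replicates were far apart for both, and SNORD50B rose in knockout (log2 change 1.35, adjusted p = 0.00242) which did not pass when control replicate 2 was left out (0.74, adjusted p = 0.105). SNORD50B was also the 1 snoRNA of the 25 called in rescue against control (1.54, adjusted p = 0.0451), a call lost in 8 of the 15 settings. SNORD87 of SNHG6 had 4 to 8 estimated reads and a log2 change of -0.13 (adjusted p = 0.653), so a fall of the size of its host was not detectable at this depth.

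In the hosts that did not pass the test, SNORA61 and SNORA44 of SNHG12 and SNORA9 of SNHG15 had at least 20 reads in every library. Their log2 changes in knockout were -0.02, -0.25 and 0.07 (adjusted p = 0.883, 0.183 and 0.634). SNORD1C of SNHG16 stood at 21.7 and 27.3 in control, 5.68 and 13.0 in knockout and 16.3 and 6.02 in rescue. It was high in both control libraries alone, on 4 to 21 estimated reads, and the call in knockout (-1.39, adjusted p = 0.00461) was lost without either control replicate (adjusted p = 0.0829 and 0.157). SNORD12C of ZFAS1 rose in knockout (0.93, adjusted p = 0.0122) on 1 to 7 estimated reads, which did not pass when control replicate 1 was left out (adjusted p = 0.27). In rescue against knockout 7 of the 25 rose and 0 fell, beside 15.6% and 15.9% of all genes.

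**Figure D3:**
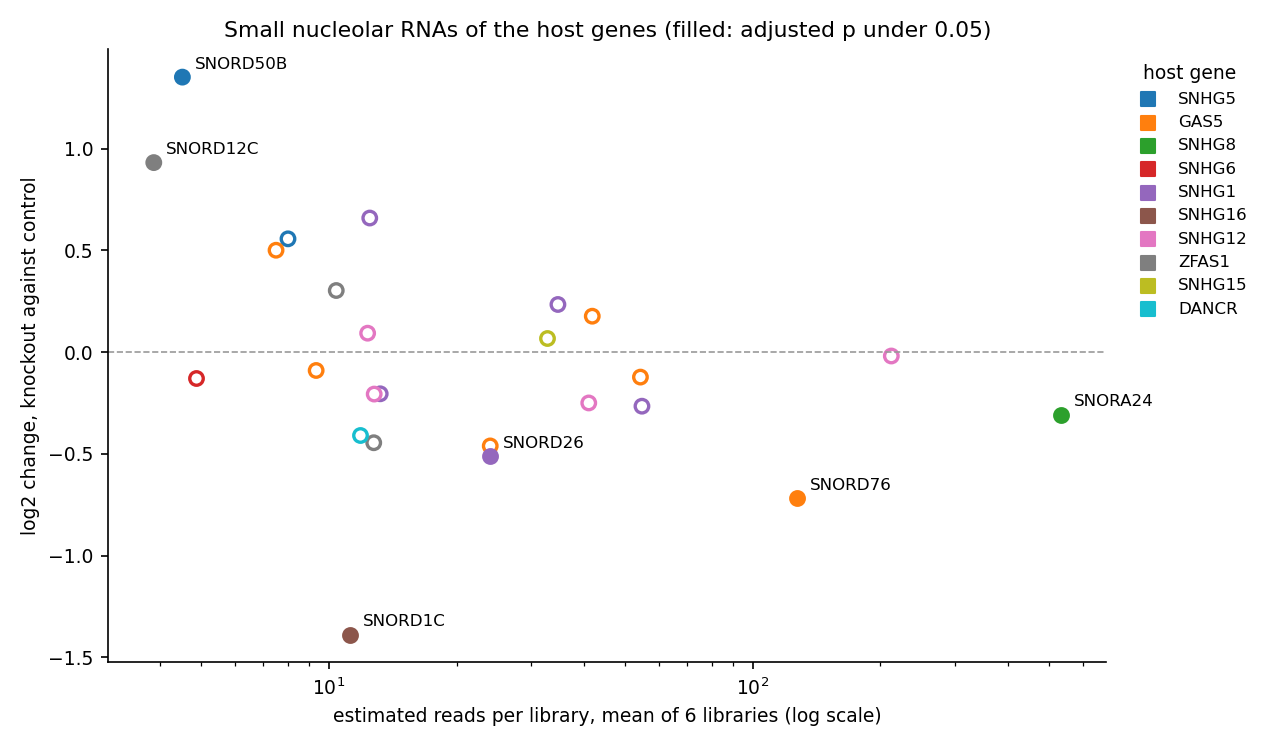
Change of log2(signal + 1) in knockout against control (vertical axis) of the 25 tested snoRNAs against their estimated reads per library (mean of 6 libraries, log axis), coloured by host gene, with filled points past an adjusted p of 0.05. SNORA24 and SNORD76 are the filled points with the most reads and lie below 0, while SNORD50B, SNORD12C and SNORD1C, the 3 filled points furthest from 0, lie at the low end of the axis with at most 21 reads in any library.

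Some hosts share a promoter region with a gene on the opposite strand. Genes beginning within 1000 bases of a host start on the other strand were ZBTB37 for GAS5 (800 nt), SLC3A2 for SNHG1 (188 nt), ZNFX1 for ZFAS1 (248 nt) and AC015802.4 for SNHG16 (83 nt), the last not in the table. The zinc finger gene ZBTB37 had a signal of 6.12 and 5.86 in control, 4.90 and 4.46 in knockout and 5.55 and 5.21 in rescue, lowest in knockout like GAS5. It fell by 0.30 on the log2 scale (adjusted p = 0.0204), which did not pass without knockout replicate 1 (adjusted p = 0.0507) or 2 (0.193), and it did not pass in rescue against knockout (0.17, adjusted p = 0.192). The amino acid transporter subunit SLC3A2 stood at 53.1 and 50.9 in control, 50.5 and 47.4 in knockout and 54.8 and 55.2 in rescue. Its log2 change in knockout was -0.09 (adjusted p = 0.276), and rescue lay above knockout by 0.17 (adjusted p = 0.0478), beside -0.10 and 0.22 for SNHG1. ZNFX1 had 0.18 in knockout (adjusted p = 0.127), beside -0.05 for ZFAS1.

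Noncoding and protein-coding hosts outside the 10 were read from lists. These lists, and those below, were chosen with earlier results of these data known, so their counts are descriptions and no independent support. Of 15 tested genes on a list of other noncoding RNA genes, which holds some that are no snoRNA hosts, 7 fell and 1 rose in knockout, beside 13.5% and 26.2% of all genes, with a median log2 change of -0.23. Rescue against knockout had 8 of them risen and 0 fallen, beside 15.6% and 15.9% of all genes, and the rises numbered 5 without rescue replicate 1 and 4 without rescue replicate 2. SNHG3 stood at 73.6 and 67.1 in control, 43.6 and 41.4 in knockout and 67.4 and 67.3 in rescue (log2 change -0.71, adjusted p = 1.65e-06). SNHG4 had -0.89, MIR17HG, which carries a microRNA cluster, had -0.50, and SNHG21 had -0.38, the last lost without knockout replicate 1 (adjusted p = 0.0636). Of 45 protein-coding hosts tested, 22 fell, 3 rose and 20 did not pass (13.5% and 26.2% of all genes fell and rose), with a median of -0.15. Of the same 45, 30 rose and 1 fell in rescue against knockout, beside 15.6% and 15.9% of all genes. Those with the smallest p were the ribosomal scaffold protein gene RACK1 (-0.83), RPS12 (-0.82), RPL13A (-0.72) and RPL12 (-0.51), all of which rose in rescue. Over all genes 3434 of 12726 tested fell under median-of-ratios scaling. The count of coding hosts that fell was 34 under median-of-ratios scaling and 14 without knockout replicate 2.

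Messenger RNAs with a TOP start were counted in the same way. Of 24 coding TOP genes outside the ribosomal proteins, 12 fell and 2 rose, beside 13.5% and 26.2% of all genes, with a median of -0.16. Under median-of-ratios scaling 19 fell and 1 rose, beside 3434 and 2920 of all 12726 genes tested. Of the 24, 14 rose and 1 fell in rescue against knockout, beside 15.6% and 15.9% of all genes. They share 3 genes with the protein-coding hosts, which is 12.5% of the TOP genes and 6.67% of the hosts. That overlap leaves out the ribosomal protein genes, which also have TOP starts and are frequent among the protein-coding hosts, RPS12, RPL13A and RPL12 among them. The counts of coding hosts and of TOP genes are therefore not separate observations. RACK1 apart, the listed TOP genes of smallest p were the importin gene IPO5 (-0.44), the initiation factor subunit gene EIF3L (-0.38) and VIM (0.82). VIM, the gene of the filament protein vimentin, rose. Among 27 regulators of TOP translation and mTOR signalling, 11 fell and 4 rose, beside 13.5% and 26.2% of all genes. DDIT4, a stress-induced inhibitor of mTORC1, fell by 0.80, SSB, which encodes the La protein, fell by 0.31, MLST8, an mTOR subunit gene, fell by 0.36, and SESN3, another inhibitor upstream of mTORC1, rose by 0.75 from a signal under 1 in control. Without knockout replicate 1 or 2 the falls in this list numbered 7 and 6 and the rises 1 and 1, and without control replicate 1 the falls numbered 7.

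Genes of the decay machinery were called in both directions. Of 22 NMD factors tested, 7 rose and 3 fell, beside 26.2% and 13.5% of all genes, and the median log2 change was 0.063, near that of all genes. EIF4A3, a core exon junction protein gene, rose by 0.40, the helicase gene DHX34 by 0.50 and SMG8, a regulator of the UPF1 kinase, by 0.36 (lost without knockout replicate 2, adjusted p = 0.0514), while UPF3A fell by 0.49. Without control replicate 2 this list had 4 rises and 5 falls, without knockout replicate 1 it had 4 and 1, and without control replicate 1 it had 9 and 1. Falls numbered 5 when scaled without structured and small RNAs, beside 2298 of all 12733 genes tested. Under quantile normalization and median-of-ratios scaling they numbered 8 and 8, beside 3187 of 12734 and 3434 of 12726 over all genes. Of 24 messenger RNAs known to be sensitive to NMD, 6 rose and 4 fell, beside the same shares of all genes, with a median of 0.016 (8 fell under each of those scalings). SMG1, SMG5, UPF1, UPF2 and UPF3B are on both decay lists, and the rise of UPF1 (0.26) is counted in each. The stress transcription factor gene DDIT3 fell by 0.90, the cysteinyl-tRNA synthetase gene CARS by 0.60 and the splicing factor gene TRA2A by 0.49, while SRSF6, another splicing factor gene, rose by 0.41.

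Genes for the protein partners of snoRNAs were tested as well. Of 13 genes of the box C/D particle and its assembly, 6 fell and 1 rose, beside 13.5% and 26.2% of all genes. In rescue against knockout 10 rose and 0 fell, beside 15.6% and 15.9% of all genes, and the rises numbered 6 without rescue replicate 1 and 5 without rescue replicate 2. FBL, the methyltransferase fibrillarin, stood at 183.5 and 182.5 in control, 147.6 and 136.6 in knockout and 193.9 and 203.7 in rescue (log2 change -0.36, adjusted p = 0.000189). NOLC1, a nucleolar chaperone of snoRNA particles, fell by 0.60, the assembly ATPase gene RUVBL2 by 0.37 and the assembly factor gene NUFIP1 by 0.35. Under quantile normalization and median-of-ratios scaling 11 of the 13 fell, beside 3187 of 12734 and 3434 of 12726 over all genes. Of 7 genes of the box H/ACA particle, 2 fell and 1 rose, beside 13.5% and 26.2% of all genes. NOP10, a small core protein gene, rose by 0.42, DKC1, the pseudouridine synthase dyskerin, fell by 0.21 (lost without knockout replicate 2, adjusted p = 0.0789), and the assembly factor gene NAF1 fell by 0.41 (lost without control replicate 1, adjusted p = 0.105). In rescue against control, by limma, 0 genes passed in each of these 8 lists of hosts, TOP genes, decay and particles. Only 0.283% of all genes tested passed there, so 0 in lists this short says little of the lists. An unadjusted p under 0.05 was reached by 0 to 11 genes per list, the 11 among the 45 protein-coding hosts, beside 1463 of all 12734 genes tested. Of the 12 myeloid markers 2 rose.

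**Figure D4:**
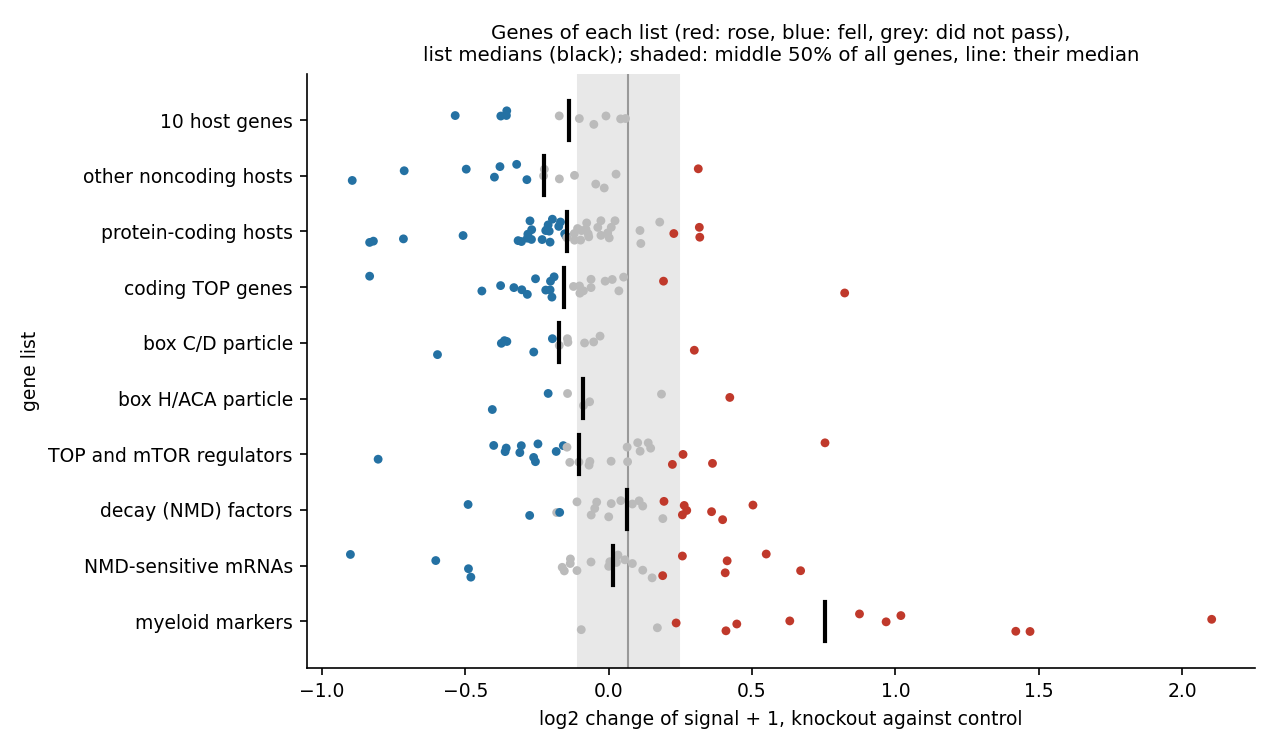
Change of log2(signal + 1) in knockout against control (horizontal axis) for each tested gene of 10 lists, with red points risen, blue points fallen and grey points that did not pass an adjusted p of 0.05. Black bars are list medians, the grey line is the median of all genes (0.067) and the shaded band spans their middle 50%, from -0.11 to 0.25. The medians of the host lists, coding TOP genes and box C/D particle lie left of the band, those of the decay lists within it, and that of the myeloid markers, at 0.75, right of it.

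The genes whose pattern over the 6 libraries lay nearest to the median profile of the 10 hosts were found among 8818 tested genes with a mean signal of at least 5. They were SLC25A13 (Euclidean distance 0.034 on centred log2 values, Pearson's r 0.995), PHF5A (0.043, r 0.990), RPS6 (0.044, r 0.991), TIGD1 (0.047, r 0.992) and LAS1L (0.049, r 0.986). The r values are descriptions over 6 libraries that the genes share, and the genes were picked for likeness. SLC25A13 encodes a mitochondrial aspartate and glutamate carrier, PHF5A a subunit of the spliceosomal SF3b complex, RPS6 a ribosomal protein and LAS1L a factor of ribosomal RNA processing. RPS6, for example, stood at 1365 and 1330 in control, 1213 and 1138 in knockout and 1402 and 1449 in rescue. By limma RPS6 alone of these genes passed in knockout against control (adjusted p = 0.00978). The others had adjusted p from 0.0534 (LAS1L) to 0.0967 (TIGD1).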

How the data were processed

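Ribosome-depleted total RNA was made into stranded libraries, per the labels' protocols. STAR, RSEM and GRCh38 are named, without versions, per the submitters' processing notes. The deposited values are a signal, an RSEM abundance whose kind (TPM or FPKM) is not given in the sources used here, so the planned branch for normalized values was used. Groups came from the labels. A gene was tested if 2 or more libraries had a signal of 1 or more, which kept 12734 and left out 2325. The test was limma (3.58.1, in R 4.3.3), with a mean-variance trend, on log2(signal + 1). All libraries entered a single fit with 3 residual and 11 prior degrees of freedom, and tests were two-sided. P-values were adjusted by Benjamini and Hochberg over every gene tested and called under 0.05. The pseudocount shrinks changes of low genes. Tested on simulated data for knockout against control over 12734 genes, the fit recovered 26% of genes changed by 0.25 (log2), 78% at 0.5 and 100% at 1. Only 200 genes were changed there, against 5056 called in the data, which makes the adjusted threshold stricter in the simulation. The noise was drawn from a normal distribution at the fitted spread. These shares therefore do not give the recovery of the tests reported here.

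Reads were estimated from the spacing of snoRNA values up to 4.5 reads, on length less 50 nt, where 84.8% to 94.7% of values per library lay within 0.15 of a whole number of a step fitted to the same values. The text names the host genes, their snoRNAs, opposite-strand neighbours within 1000 nt, up to 4 genes per list of smallest p in knockout and the 5 nearest profiles. Some markers of other lineages are not reported here. Members and lists were chosen with earlier results of these data known. Coordinates and snoRNA sequences are from GENCODE 29 (GRCh38), and start-site sequences and the snoRNAs within each host from RefSeq (GRCh38.p14). Alternatives covered the pseudocount, filters, scaling, trend, replicate block, groups fitted and each library left out. Other steps ran in Python 3.11.15 with pandas 2.3.3, numpy 2.4.6 and, for figures, matplotlib 3.10.9.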

Additional observations from a re-analysis of the deposited data

How the results depend on the processing

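The log2 changes of the 10 host genes in 3 comparisons were recomputed in 15 settings each, 450 values, of which 414 kept their direction and their side of the threshold, and the falls of SNHG5, GAS5, SNHG8 and SNHG6 in knockout passed in all 15. Low estimated reads limit most snoRNAs, and 2 libraries a group limit every test. In knockout against control, quantile normalization and median-of-ratios scaling gave 8 and 8 fallen host genes: SNHG1 (-0.16 and -0.19), SNHG16 (-0.090 and -0.10), ZFAS1 (-0.12 and -0.14) and DANCR (-0.23 and -0.26) passed. SNHG12 turned to -0.042 and -0.050, and SNHG15 (-0.031) and SNORA9 (-0.021) turned in the latter. Both centre the median of all genes, which was 0.067 without them and -0.0037 and -0.014 with them. The cause of the other changes was not tested. In rescue against knockout SNHG1 (0.22) and SNHG16 (0.22) did not pass without a trend, SNHG12 (0.15) passed with median-of-ratios scaling and SNHG15 (0.19) with a mean signal of at least 5. When scaled without structured and small RNAs, ZFAS1 (-0.042), SNORD28 (-0.0014) and SNORA9 (-0.053) turned. In rescue against control SNHG6 turned under those 3 scalings (-0.056, -0.055 and -0.053).

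Leaving out each library in turn gave the following ranges. In knockout they were -0.013 to 0.097 for SNHG12, -0.082 to 0.064 for SNHG16, -0.035 to 0.50 for SNORD28, -0.28 to 1.4 for SNORD50A, -0.26 to 0.0097 for SNORD87, -0.50 to 0.0053 for SNORA44, -0.078 to 0.040 for SNORA61 and -0.090 to 0.22 for SNORA9. In rescue against knockout they were 0.14 to 0.30 for SNHG1, 0.19 to 0.24 for SNHG16, 0.052 to 0.34 for SNHG15, -0.11 to 0.23 for SNORD28, -0.069 to 0.28 for SNORA61 and -0.15 to 0.16 for SNORA9. In rescue against control they were -0.052 to 0.034 for GAS5, -0.095 to 0.12 for SNHG6 and 0.11 to 0.40 for SNHG15, and 0 to 1 host genes rose. An arm left with 1 library is assumed to vary like the other groups.

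Over all genes, 2065 to 4127 rose in knockout with a library left out, and 3187 and 3434 fell under quantile normalization and median-of-ratios scaling. In rescue against knockout 1154 to 2492 rose and 1119 to 2538 fell with a library left out, 3101 rose with median-of-ratios scaling and 3778 fell when scaled without structured and small RNAs. In rescue against control the genes risen and fallen were 6 to 213 and 1 to 73 with a library left out, 194 and 31 at a mean signal of at least 5, 19 and 14 with quantile normalization, 6 and 0 with median-of-ratios scaling, 5 and 4 without a trend and 209 and 68 with only the 2 groups compared. Without a filter, and when scaled without structured and small RNAs, 17 and 17 rose.

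Whether same-numbered libraries of different groups were handled together is not stated in the labels. Their deviations across genes correlated at -0.011 (control and knockout), -0.048 (control and rescue) and 0.10 (knockout and rescue), which does not settle it. With the replicate number as a block, SNHG15 passed in rescue against knockout (0.19) and in rescue against control (0.25, the 1 host gene to rise), and 299 genes rose and 83 fell in the latter. The block changed no other call of a host gene. SnoRNAs given in the text by counts alone were not followed over the settings one by one.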
